A study of Mus musculus with 6 samples.

Results

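The comparison set the small RNA-seq library of Dicer cKO Achilles tendon against that of ScxHt Achilles tendon, and asked which miRNA loci differed when Dicer was deleted with the ScxCre allele present on both sides. A feature of the count table, which is a miRNA locus or another short RNA annotated with the miRNAs, was a member when its mean normalized count over both libraries was above 15. This minimum left 322 of the 2265 features in the table. Of the others, 1570 had no reads in either library and 373 had reads at or below the minimum.

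RNA-seq and small RNA-seq were made from Achilles tendon of mice at 4 weeks of age. The Dicer cKO sample was ScxCre/+ Knock In with 2 floxed Dicer alleles (Dicer f/f), and the ScxHt sample was ScxCre/+ Knock In with intact Dicer alleles (Dicer +/+). The Control sample carried Dicer f/f without Cre, and its counts are given for orientation. Each genotype had 1 library per assay, and the labels give 1 sample number to both assays of a genotype. Cre was knocked into Scx, the gene of the tendon transcription factor scleraxis. Both ScxCre genotypes therefore had 1 altered Scx allele, and recombination followed Scx promoter activity, so cells of the tendon that never used Scx kept Dicer. By real-time PCR the paper reports significantly less Dicer in Achilles tendon of Dicer cKO than of Control mice, with no ScxHt group. The paper also states that neither Dicer nor most miRNAs fell dramatically. It proposes inefficient and mosaic recombination among Scx-expressing cells, by which some of these would keep Dicer too. Each sample came from 1 mouse, as the study's supplement states. Without replicate libraries no test was possible, no p-value was computed and no difference could be set against the spread between mice. In such whole-tissue RNA, fewer cells of a type and less RNA per cell cannot be told apart.

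Dicer is the RNase III enzyme that cuts hairpin precursors in the cytoplasm into mature miRNAs, which then guide Argonaute proteins to target mRNAs. Pairing rests mostly on the seed, the bases 2 to 8 of the mature miRNA, so loci with a shared seed have overlapping targets. Many miRNAs mark a cell lineage, among them miR-1, miR-133 and miR-206 in skeletal muscle, miR-223 in myeloid cells, miR-126 in endothelium and miR-199a with miR-214 in mesenchyme.

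Mature sequences from RefSeq (GRCm38.p6) were matched to 280 of the 322 members. The counts are per locus and do not separate the 5p and 3p arms, so the arm shown is the one that is generally the more abundant. The first set holds miRNAs with high Dicer cKO/ScxHt ratios, from muscle-enriched to neural and imprinted loci, with the seed in capitals. All were past the upper limit given below except miR-133b, at 1.47. miR-1 and miR-378a were also past it but are not shown, since no sequence of their main arm was matched.
miR-206-3p: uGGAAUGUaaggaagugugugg
miR-133b-3p: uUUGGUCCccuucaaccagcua
miR-208b-3p: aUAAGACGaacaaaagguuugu
miR-499-5p: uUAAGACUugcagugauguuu
miR-378b: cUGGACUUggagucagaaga
miR-378c: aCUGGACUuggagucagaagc
miR-338-3p: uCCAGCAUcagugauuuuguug
miR-182-5p: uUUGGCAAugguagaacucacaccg
miR-183-5p: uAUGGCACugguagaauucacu
miR-138-5p: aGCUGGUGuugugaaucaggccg
miR-335-5p: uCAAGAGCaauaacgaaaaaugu
miR-483-3p: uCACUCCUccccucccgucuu
miR-381-3p: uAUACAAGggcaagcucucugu
miR-128-3p: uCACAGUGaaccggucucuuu
miR-19a-3p: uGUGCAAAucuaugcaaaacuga
miR-19b-3p: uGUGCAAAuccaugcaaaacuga

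The second set holds miRNAs from the families whose members lay below 1, and shows how little the let-7 members differ outside the seed.
let-7i-5p: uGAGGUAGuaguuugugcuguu
let-7g-5p: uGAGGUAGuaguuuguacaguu
let-7b-5p: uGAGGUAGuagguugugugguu
let-7c-5p: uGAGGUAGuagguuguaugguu
let-7f-5p: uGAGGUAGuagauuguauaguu
miR-29a-3p: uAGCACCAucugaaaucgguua
miR-27b-3p: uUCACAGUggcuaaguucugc
miR-181a-5p: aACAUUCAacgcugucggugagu
miR-181b-5p: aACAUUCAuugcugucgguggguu
miR-140-3p: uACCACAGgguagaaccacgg
miR-223-3p: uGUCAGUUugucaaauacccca

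The precursor of miR-451a is shown because Argonaute 2, and not Dicer, cuts it. The capitals mark the mature miRNA, which runs from base 17 to base 38 across the end of the stem into the loop (chr11:78073170-78073241, + strand).
Mir451a hairpin: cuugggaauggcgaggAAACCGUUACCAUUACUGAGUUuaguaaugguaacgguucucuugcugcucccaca

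Counts added up to 8435829 in the Dicer cKO and 8437993 in the ScxHt library, and the members held 99.99% of both. The Control library held 10986541 and was divided by a scale factor of 1.17, which applies to all small RNA values of Control given here. The median-of-ratios size factors were 1.0 for both compared libraries, so that their normalized counts equal the reads. Such scaling sets the middle of the distribution near 1, and a change shared by all miRNAs would not show in the ratios. In RNA-seq of the same samples Dicer1 had 1621 reads in Dicer cKO, 2025 in ScxHt and 1919 in Control, a Dicer cKO/ScxHt ratio of 0.882 (95% counting interval 0.826 to 0.942). These reads cover the whole gene and not the floxed part alone, so they do not check the deletion.

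The members spread on both sides of 1, 164 with a ratio below it and 156 above, while those far from 1 were mostly high. The median ratio was 0.996, the quartiles were 0.834 and 1.24, and the range ran from 0.286 to 3.15. The study's limits were applied. A feature was called higher past the upper limit, a ratio of about 1.7 (log2 ratio of 0.74), and lower past the lower limit, a ratio of 0.60 (log2 ratio of -0.74). Higher features numbered 36 of 322 (11.2%) and lower features 7 (2.17%). The 95% Clopper-Pearson counting interval lay above 1 for 35 of the 36 and below 1 for 6 of the 7. The interval covers counting error only. It lay entirely past the limit for 16 higher features and 1 lower feature. Some of the 36 share reads, such as Mir1a-1 and Mir1a-2, and Mir665 is listed under 2 names with the same counts. Among all members the interval lay above 1 for 83 (25.8%), below 1 for 109 (33.9%) and included 1 for 130. These shares varied with abundance, since intervals narrow with depth. Of the 55 members with over 10000 counts, 31 had an interval below 1 and 14 above. Of the 89 between 15 and 100 counts, 12 had it below 1 and 17 above.

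The higher features came from all levels of abundance, whereas the lower ones were scarce. The highest mean count among the 7 lower features was 104, that of Mir6240, and the median was 29.0. Higher features reached a mean count of 271584, and 12 of the 36 had over 1000. The most abundant members were shifted slightly below 1. Ratios below 1 made up 70.9% of the 55 members with over 10000 counts, with a median of 0.925 and no lower feature, against 38.2% of the 89 members between 15 and 100 counts, with a median of 1.17. Both libraries had nearly equal totals, so larger shares of some miRNAs left smaller shares for the others. Mir206 held 4.84% of the counts in Dicer cKO and 1.60% in ScxHt, and Mir1a-1 held 3.16% and 1.17%. How much of the shift this makes up was not tested. Nearest the limits among the called features were Mir3099 (27 and 16 reads in Dicer cKO and ScxHt, ratio 1.69) and Mir32 (16 and 27 reads, 0.593), which were the 2 called features with an interval that included 1. Nearest among the others were Mir380 at 1.64 and Mir669c at 0.606.

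**Figure D1:**
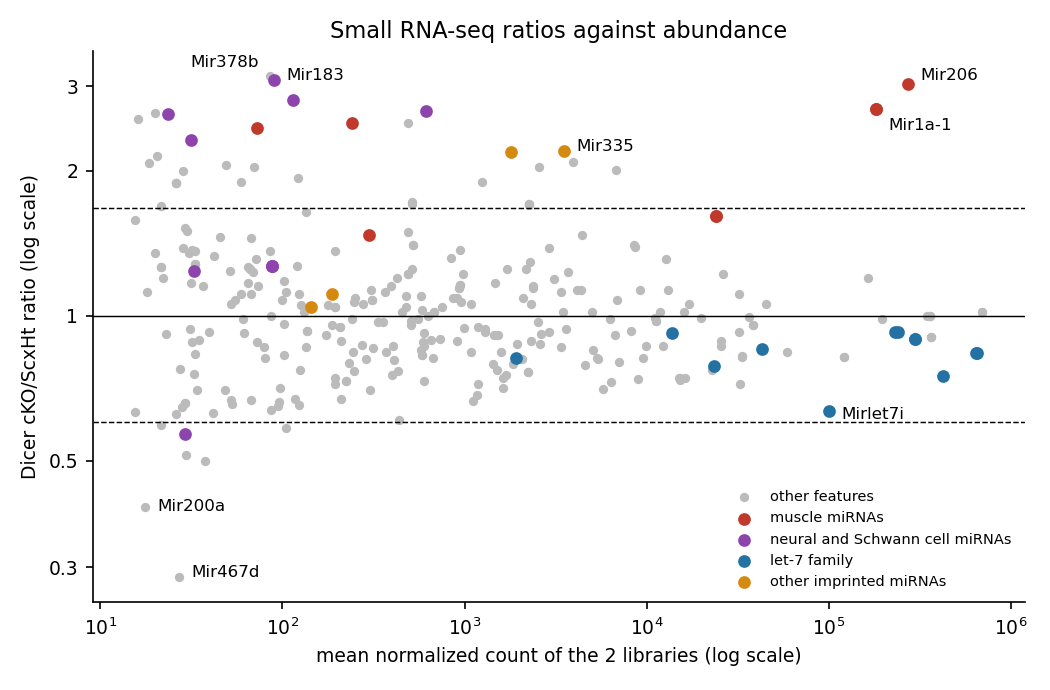
Dicer cKO/ScxHt ratio of each of the 322 features (log axis) against its mean normalized count in the 2 libraries (log axis), with 4 miRNA lists in colour. The solid line is a ratio of 1 and the dashed lines are the upper and lower limit. Mir206 and Mir1a-1 stand at the upper right, the let-7 family lies below 1 at high counts, and the features below 0.60 have few reads.

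Muscle miRNAs were the highest list. Mir206 (chr1:20679010-20679082, + strand) encodes miR-206, which is specific to skeletal muscle. It had 408434 reads in Dicer cKO, 134734 in ScxHt and 265498 after scaling in Control. The ratio was 3.03 (3.01 to 3.05), and the share of all counts was 4.84% (exact interval 4.83 to 4.86) in Dicer cKO against 1.60% (1.59 to 1.61) in ScxHt. The Control value lay between both.

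Mir1a-1 (chr2:180389048-180389124, + strand) encodes miR-1, which promotes differentiation of striated muscle. It had 266160 reads in Dicer cKO, 98934 in ScxHt and 148814 in Control, a ratio of 2.69 (2.67 to 2.71). Its copy Mir1a-2 had 266189 and 98936 reads, so the same reads appear to be listed at both loci and they are 1 measurement. Mir133a-1 and Mir133a-2, which encode the partner miR-133a, likewise had nearly the same counts, with 29615 reads in Dicer cKO, 18367 in ScxHt and 15730 in Control for the first. Their ratio of 1.61 (1.58 to 1.64) lay just under the limit.

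The 2 intronic myosin miRNAs were scarce but equally high. Mir208b (chr14:54975700-54975776, − strand) lies in an intron of Myh7, the slow myosin heavy chain, and had 344, 137 and 219 reads in Dicer cKO, ScxHt and Control, a ratio of 2.51 (2.05 to 3.08). Mir499 (chr2:155622880-155622958, + strand), in an intron of Myh7b, had 103, 42 and 62.3 reads and a ratio of 2.45 (1.70 to 3.60). Mir133b had 358, 243 and 246 reads and the lowest ratio of the list, 1.47 (1.25 to 1.74). Mir208a, the cardiac miRNA, had 2 reads and 1 read and was at the floor of 3 reads.

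Of the 9 listed muscle miRNAs, 8 passed the minimum, all 8 intervals lay above 1 and 5 ratios exceeded the upper limit (25.8% and 11.2% of all features), with a median of 2.48 against 0.996 over all 322 features. Markers of skeletal muscle moved with them in RNA-seq of the same tendon samples. All 12 markers had a ratio above 1, 10 of 12 above the upper limit, with a median of 2.32 and a range from 1.21 for Pvalb to 4.74 for Myh2. Their summed normalized counts were 1535508 in Dicer cKO, 473797 in ScxHt and 921453 in Control. For the 2 hosts the mRNA ratio was 3.69 (3.62 to 3.76) for Myh7 and 3.33 (2.43 to 4.61) for Myh7b. Over the 13455 RNA-seq genes with a mean normalized count above 50, 7.68% exceeded the upper limit and 5.68% were below 0.60. The part of muscle tissue in the samples in the miRNA ratios was not tested.

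**Figure D2:**
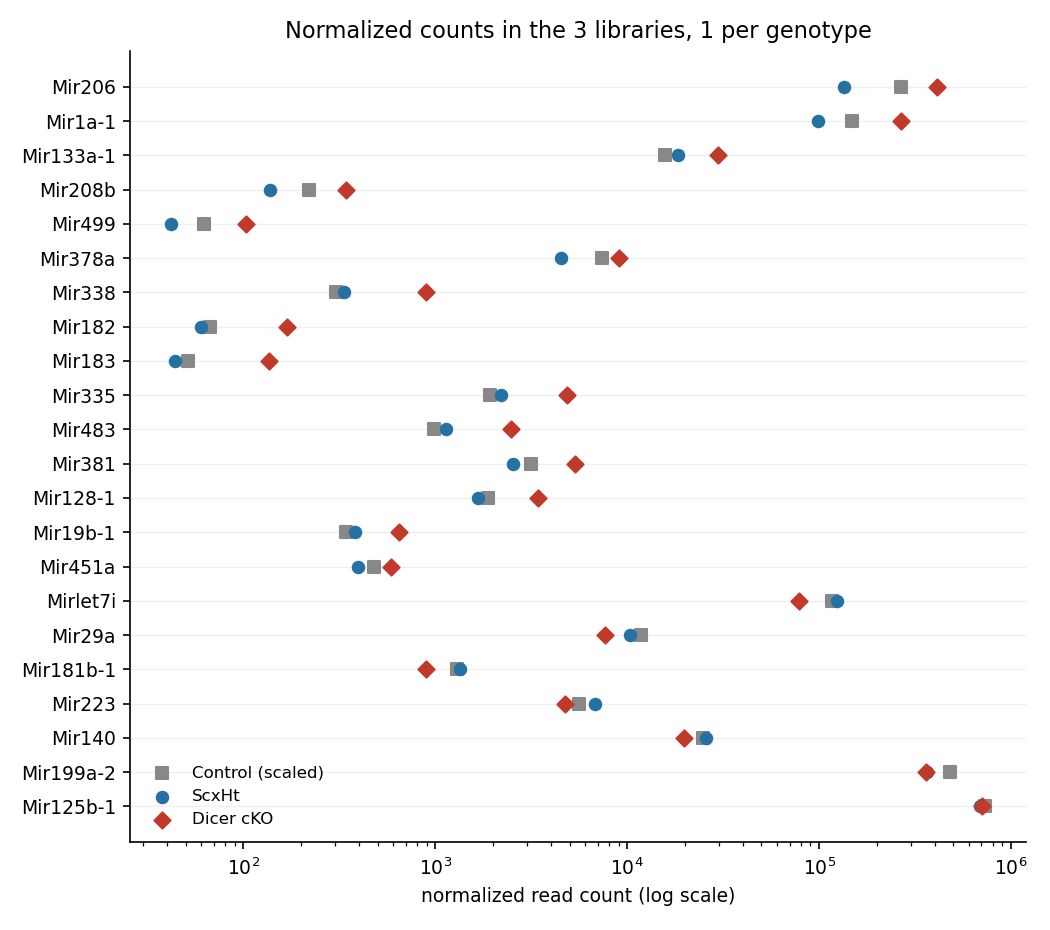
Normalized read counts (log axis) of 22 miRNA loci in the Control (square, scaled), ScxHt (circle) and Dicer cKO (diamond) libraries, 1 library per genotype and no error bars. For Mir206, Mir1a-1, Mir208b and Mir499 the Control symbol lies between the others, for Mir338, Mir335 and Mir483 it lies left of ScxHt, and for Mir199a-2 the ScxHt and Dicer cKO symbols coincide.

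The miR-378 loci were high together. Mir378a, in an intron of Ppargc1b, a coactivator of mitochondrial genes, had 9014 reads in Dicer cKO, 4493 in ScxHt and 7397 in Control, a ratio of 2.01 (1.94 to 2.08). Mir378b (chr11:88352773-88352864, + strand) had the highest ratio of all members at 3.15 (2.20 to 4.59), on 129, 41 and 78.6 reads. Mir378c (chr14:46954830-46954928, − strand) had 700, 279 and 552 reads and a ratio of 2.51 (2.18 to 2.89). Mature miR-378b and miR-378c share a run of 19 bases, so the split of reads between these loci is uncertain. The host Ppargc1b had a ratio of 2.61 (2.12 to 3.24) in RNA-seq.

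Neural and Schwann cell miRNAs formed the second highest list, with counts far below those of the muscle loci. Mir338 (chr11:120014765-120014862, − strand), in an intron of Aatk and abundant in myelinating glia, had 892 reads in Dicer cKO, 335 in ScxHt and 302 in Control. The ratio was 2.66 (2.35 to 3.03), and ScxHt and Control were alike in level. Mir183 and Mir182, neighbours on chromosome 6 and enriched in sensory neurons and sense organs, had ratios of 3.09 (2.19 to 4.45) and 2.80 (2.07 to 3.83). Mir183 had 136 reads in Dicer cKO, 44 in ScxHt and 51.2 in Control, and Mir182 had 168, 60 and 66.6. The third miRNA of this cluster, Mir96, had 0 reads in Dicer cKO and 1 read in ScxHt.

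The neuronal miR-138 was high at both of its loci. Mir138-1 had 44, 19 and 26.5 reads in the same order and a ratio of 2.32 (1.32 to 4.2), and Mir138-2 had 34, 13 and 18.8 reads and a ratio of 2.62 (1.35 to 5.40). Both loci make the same mature sequence and are not independent. The 3 copies of Mir9, a miRNA of neural progenitors, had identical counts (98, 77 and 81.1) and a ratio of 1.27 (0.935 to 1.74). Mir219a-2, whose miRNA is expressed with miR-338 in myelinating glia, went the other way with 21 reads in Dicer cKO, 37 in ScxHt and 44.4 in Control, a ratio of 0.568 (0.316 to 0.995). Its paralogue Mir219a-1 had 36 and 29 reads and a ratio of 1.24 (0.740 to 2.10). The 3 loci of Mir124a, the main neuronal miRNA, had no reads in any of the 3 libraries.

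Of these 14 listed loci 10 passed the minimum, 5 were above the upper limit and 1 below the lower, beside 11.2% and 2.17% of all features, and the median was 1.72. Schwann cell markers moved with them in RNA-seq. The 6 of 8 markers above 50 counts all had a ratio above 1, with a median of 4.74, 1.07 for Pmp22 as the lowest and 8.45 (7.24 to 9.91) for Mbp, a protein of the myelin sheath. Mbp had 1403 reads in Dicer cKO, 183 in ScxHt and 194 after scaling in Control. Summed marker counts were 11363, 4614 and 3825, and none of the markers was at 0. The host Aatk had a ratio of 1.40 (1.15 to 1.70). The part of nerve tissue in the miRNA ratios was not tested.

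Imprinted loci outside chromosome 12 included a pair with almost equal ratios and ample reads. Mir335 (chr6:30741299-30741396, + strand), in an intron of Mest, had 4847 reads in Dicer cKO, 2203 in ScxHt and 1932 in Control, a ratio of 2.20 (2.09 to 2.31). Mir483 (chr7:142654924-142654996, − strand), in an intron of the growth factor gene Igf2, had 2477, 1133 and 981 reads and a ratio of 2.19 (2.04 to 2.35). For both, ScxHt and Control lay close together and Dicer cKO apart. The host mRNA ratios were 1.42 (1.22 to 1.66) for Mest and 1.92 (1.74 to 2.12) for Igf2. Mir296 and Mir298, in the Gnas region, had ratios of 1.11 (0.904 to 1.37) and 1.04 (0.822 to 1.32), and Mir675, made from H19, had 13 and 8 reads and did not pass the minimum.

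The imprinted Dlk1-Dio3 region on chromosome 12, which holds a large group of miRNA genes, stayed near 1 as a group with few exceptions. Of 47 listed loci 43 passed the minimum, with a median of 1.06, 11 intervals above 1, 9 below and 23 including 1, beside 25.8% above and 33.9% below over all features. Mir381 (chr12:109726822-109726896, + strand) stood apart with 5337 reads in Dicer cKO, 2548 in ScxHt and 3136 in Control, a ratio of 2.09 (2.0 to 2.20). Mir665, the other locus of the region past the upper limit, had 34, 18 and 30.7 reads and a ratio of 1.89 (1.04 to 3.55). Mir376a, near Mir381, had 94, 140 and 93.9 reads and a ratio of 0.671 (0.511 to 0.878). Among abundant members of the region, Mir127 had 37432 and 39081 reads and a ratio of 0.958 (0.944 to 0.972), and Mir434 had 11165 and 11429 and a ratio of 0.977 (0.952 to 1.0). The host transcript Mirg had a ratio of 1.39 (1.27 to 1.53) and Meg3 of 1.24 (1.20 to 1.29).

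The remaining higher miRNAs included 2 seed families represented by every locus above the minimum. Both loci of miR-128, which is abundant in brain, were high. Mir128-1, in R3hdm1, had 3423 reads in Dicer cKO, 1676 in ScxHt and 1870 in Control, a ratio of 2.04 (1.93 to 2.17). Mir128-2, in Arpp21, had 1643, 863 and 902 reads and a ratio of 1.90 (1.75 to 2.07). Their hosts differed in RNA-seq, with 1.15 (1.08 to 1.22) for R3hdm1 and 3.86 (3.19 to 4.68) for Arpp21. Both loci make the same mature miRNA, so the host of each read is uncertain.

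Mir19a, with 94, 46 and 35 reads, had a ratio of 2.04 (1.42 to 2.97). Mir19b-1, with 650, 381 and 342 reads, had a ratio of 1.71 (1.5 to 1.94), and its copy Mir19b-2 on chromosome X had 1.72. The mature miR-19a and miR-19b differ by 1 base (U11C, counted from 1 at the 5′ end, miR-19a first) and share the seed GUGCAAA. They belong to the miR-17 to miR-92 clusters, which promote proliferation. Of the 11 listed loci above the minimum only these 3 exceeded the upper limit, beside 11.2% of all features, and the median was 1.02. Mir31 had 38, 19 and 29.9 reads and a ratio of 2.0 (1.12 to 3.67). Mir205, typical of stratified epithelium, had 160, 83 and 80.3 reads and a ratio of 1.93 (1.47 to 2.54).

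The let-7 family, which restrains proliferation and is among the most abundant in adult tissue, lay below 1 at the 12 listed loci by small amounts. Ratios ran from 0.635 for Mirlet7i to 0.925 for Mirlet7f-1, with a median of 0.845 and all 12 intervals below 1. Copies of let-7a, let-7c and let-7f had similar counts within each pair, so the 12 loci are not independent measurements. An interval below 1 occurred in 33.9% of all features, and in 31 of the 55 members with over 10000 counts. All listed let-7 loci except Mir98 had over 10000 counts, a level at which the median ratio of all members was 0.925. Mirlet7i (chr10:122985640-122985724, − strand) had 78175 reads in Dicer cKO, 123122 in ScxHt and 116248 in Control, and its interval was 0.629 to 0.641. No other member with over 10000 counts had so low a ratio. Its share of the counts was 0.927% in Dicer cKO, 1.46% in ScxHt and 1.24% in Control.

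Mirlet7b had 362472, 483049 and 454994 reads in the same order and a ratio of 0.750 (0.747 to 0.754). Mirlet7c-2, its neighbour on chromosome 15, had 595718, 712039 and 754059 reads and a ratio of 0.837 (0.834 to 0.840). Mirlet7g had 13289, 14452 and 12592 reads and a ratio of 0.920 (0.898 to 0.942). Of the let-7 sequences of 22 bases, let-7g-5p is the nearest to let-7i-5p with 2 differences (G17A and U19A, let-7i first, counted from 1 at the 5′ end). None of the 12 was past the lower limit. Mir7k, a further locus with the let-7 seed, had 36 and 24 reads and a ratio of 1.5 (0.871 to 2.63), and Mir7j, for let-7j with the seed GAGGUAU, had 110 and 98 reads and 1.12 (0.847 to 1.49). Both were outside the list.

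The families of miR-29, miR-23, miR-27 and miR-24 lay below 1 at every locus. miR-29 targets collagen mRNAs, and its 4 loci had ratios from 0.740 to 0.842. Mir29a (chr6:31062660-31062747, − strand) had 7624 reads in Dicer cKO, 10302 in ScxHt and 11809 in Control, a ratio of 0.740 (0.718 to 0.762). Collagen markers on the tendon list had RNA-seq ratios of 0.783 (0.781 to 0.786) for Col1a1 and 0.656 (0.653 to 0.658) for Col1a2. The 6 loci of the miR-23, miR-27 and miR-24 clusters ran from 0.720 to 0.866 with a median of 0.806. Mir27b (chr13:63300712-63300784, + strand) was the lowest, with 27336, 37972 and 32893 reads and an interval of 0.709 to 0.731. Over all 322 features an interval below 1 occurred in 33.9%. It occurred in 37 of the 72 members with 1000 to 10000 counts and in 31 of the 55 with more. Mir24-1 and Mir24-2 had nearly the same counts, as had Mir29b-1 and Mir29b-2, so the loci of each pair are not independent.

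The miR-181 family, with the seed ACAUUCA, had 6 loci from 0.664 to 0.922 with a median of 0.758. Copies of miR-181a had similar counts, as did those of miR-181b, so the 6 loci are not independent. Mir181b-1 had 891 reads in Dicer cKO, 1342 in ScxHt and 1301 in Control, a ratio of 0.664 (0.609 to 0.723). Mir181a-1, from the same primary transcript, had 4819, 5899 and 6806 reads and 0.817 (0.786 to 0.849). For Mir181d, with 59 and 64 reads, the interval included 1 (0.636 to 1.33). The miR-30 family went the other way, with ratios from 0.921 for Mir30b to 1.31 for Mir30a, a median of 1.13 and 5 of 6 intervals above 1, beside 25.8% of all features. Mir30c-1 and Mir30c-2 make the same mature miRNA, had similar counts and are not independent.

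The 7 loci that share the miR-15 and miR-16 seed (AGCAGCA) did not share a direction. Mir16-1 had 346068 reads in Dicer cKO and 383692 in ScxHt, a ratio of 0.902 (0.898 to 0.906), and Mir195a had 5405 and 7422 reads and 0.728 (0.703 to 0.754). Mir322 on chromosome X, linked to myogenic differentiation, had 5252 and 3570 reads and a ratio of 1.47 (1.41 to 1.54). The median of these 7 loci was 0.902, and also that of the list of 8 with Mir503, which has another seed. In the miR-99, miR-100 and miR-125 list, ratios ran from 0.865 to 1.02. It holds the most abundant member, Mir125b-1, with 703160 reads in Dicer cKO, 691134 in ScxHt and 730446 in Control, 8.34%, 8.19% and 7.79% of the counts.

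**Figure D3:**
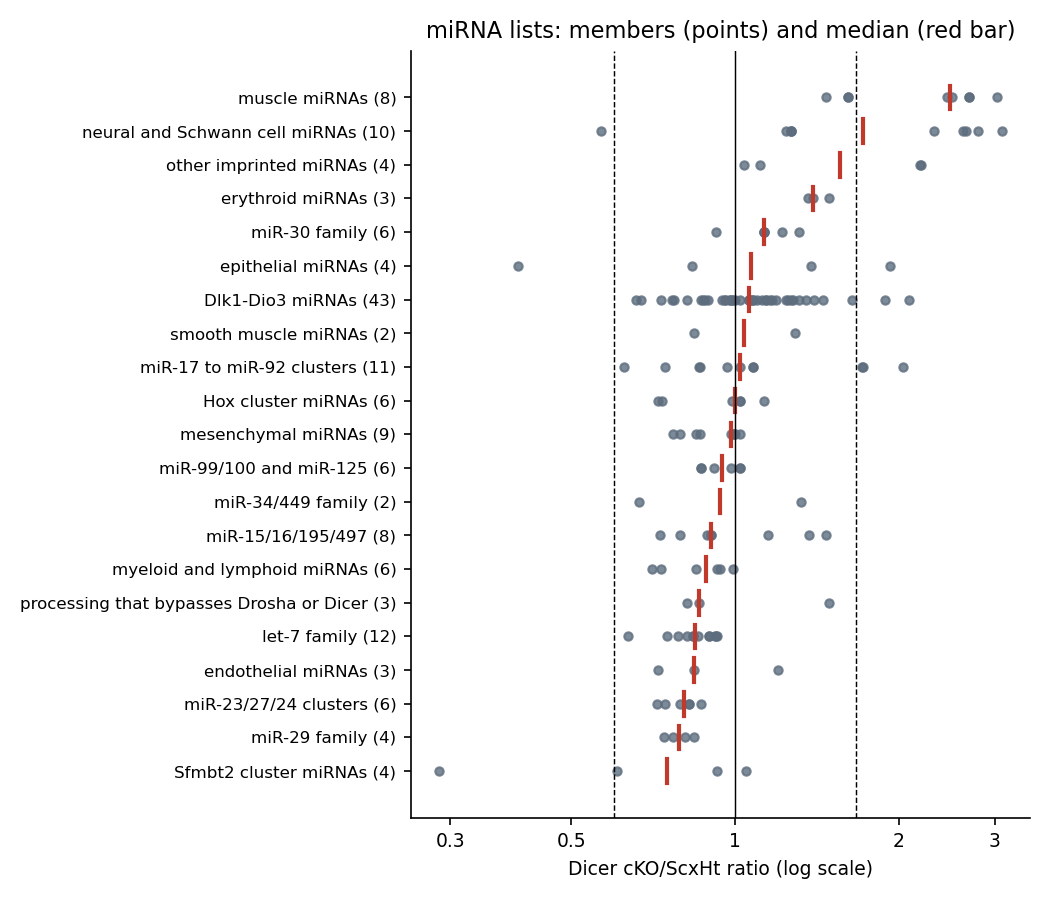
Dicer cKO/ScxHt ratios (log axis) of the members of 21 miRNA lists that passed the minimum (points) and the median of each list (red bar), sorted by median, with the number of members in parentheses. The solid line is 1 and the dashed lines are the upper and lower limit. Muscle miRNAs are the highest list and lie wholly above 1, while the let-7, miR-29 and miR-23/27/24 lists lie wholly below it.

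Mesenchymal miRNAs, which fibroblasts and tendon cells express, lay at or slightly below 1. Mir199a-2 had 361918 reads in Dicer cKO and 362563 in ScxHt, a ratio of 0.998 (0.994 to 1.0), and 477808 in Control, above both. Mir199b was at 1.0 (0.995 to 1.0) on nearly the same reads. Mir21a, with 6275 and 6384 reads, had 0.983 (0.949 to 1.02). Lower were Mir214, from the transcript Dnm3os that also holds Mir199a-2, at 0.794 (0.744 to 0.847), and Mir218-2 at 0.847 (0.753 to 0.953).

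Mir140 (chr8:107551244-107551313, + strand), in Wwp2 and the leading miRNA of cartilage, had the lowest ratio of the list. It had 19817 reads in Dicer cKO, 25733 in ScxHt and 24765 in Control, a ratio of 0.770 (0.756 to 0.785). The host Wwp2 had a ratio of 0.468 (0.438 to 0.499) in RNA-seq. The median of the 9 mesenchymal loci was 0.983, and 4 intervals lay below 1 and none above, beside 33.9% and 25.8% of all features. By contrast, all 10 tendon fibroblast markers had RNA-seq ratios below 1, 6 of them below 0.60, with a median of 0.531 and a range from 0.354 for Comp to 0.814 for Mkx. Their summed counts were 1227729 in Dicer cKO, 1796520 in ScxHt and 2198706 in Control. Cartilage markers above 50 counts had a median of 0.698, with 0.358 for Sox9 and 1.06 for Col2a1. Their part in the result was not tested.

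Among the 6 Hox cluster miRNAs the median was 1.0, with the lowest ratios for Mir615 (0.721, 0.586 to 0.886) and Mir196b (0.735, 0.718 to 0.752) and the highest for Mir10b (1.13, 1.10 to 1.16). Of the smooth muscle miRNAs, Mir143 had 54279 and 64432 reads and a ratio of 0.842 (0.833 to 0.852), and its neighbour Mir145a had 2585 and 1999 reads and 1.29 (1.22 to 1.37).

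Myeloid and lymphoid miRNAs lay below or near 1. Mir223 (chrX:96242817-96242926, + strand), the defining miRNA of neutrophils and monocytes, had 4756 reads in Dicer cKO, 6750 in ScxHt and 5620 in Control, a ratio of 0.705 (0.679 to 0.731). Mir155, induced in activated immune cells, had 508, 696 and 586 reads and 0.730 (0.650 to 0.820), and the pan-haematopoietic Mir142 had 0.849 (0.816 to 0.883). Mir146 lay at 0.991 (0.965 to 1.02). Of 6 loci above the minimum, 5 intervals lay below 1, beside 33.9% of all features, and the median was 0.886.

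Mir511, in the macrophage gene Mrc1, had 3 reads in Dicer cKO, 27 in ScxHt and 29.0 in Control, and its mean of 15 reads did not exceed the minimum. Its ratio was 0.111 (0.0216 to 0.361), and the Dicer cKO count was at the floor of 3 reads. All 6 macrophage markers in RNA-seq were below 0.60, from 0.395 for Cd163 to 0.519 for Adgre1, with a median of 0.440 and summed counts of 2814, 6390 and 3648 in Dicer cKO, ScxHt and Control. Mrc1 itself had a ratio of 0.466 (0.435 to 0.498). Their part in the miRNA ratios was not tested.

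Erythroid miRNAs lay above 1 and under the upper limit. Mir144 had 223 reads in Dicer cKO, 164 in ScxHt and 160 in Control, a ratio of 1.36 (1.11 to 1.7), and Mir451a had 586, 394 and 477 reads and 1.49 (1.31 to 1.69). Mir486, in an intron of Ank1 and also expressed in muscle, had 10076, 7237 and 11539 reads and 1.39 (1.35 to 1.44). All 5 erythroid markers exceeded the upper limit in RNA-seq, with a median of 2.33 and summed counts of 7233, 2912 and 3056. The part of blood in these ratios was not tested.

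Endothelial miRNAs did not move as a group. Mir126a, in Egfl7 and the main endothelial miRNA, had 180654 reads in Dicer cKO, 150234 in ScxHt and 172446 in Control, a ratio of 1.20 (1.19 to 1.21), beside 1.43 (1.26 to 1.62) for Egfl7 and a median of 1.64 over 5 endothelial markers, all above 1. Mir221, also expressed outside endothelium, had 0.721 (0.664 to 0.782). Adipocyte markers had a median of 0.900, from 0.431 for Lep to 1.02 for Fabp4, and no miRNA list was set beside them.

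**Figure D4:**
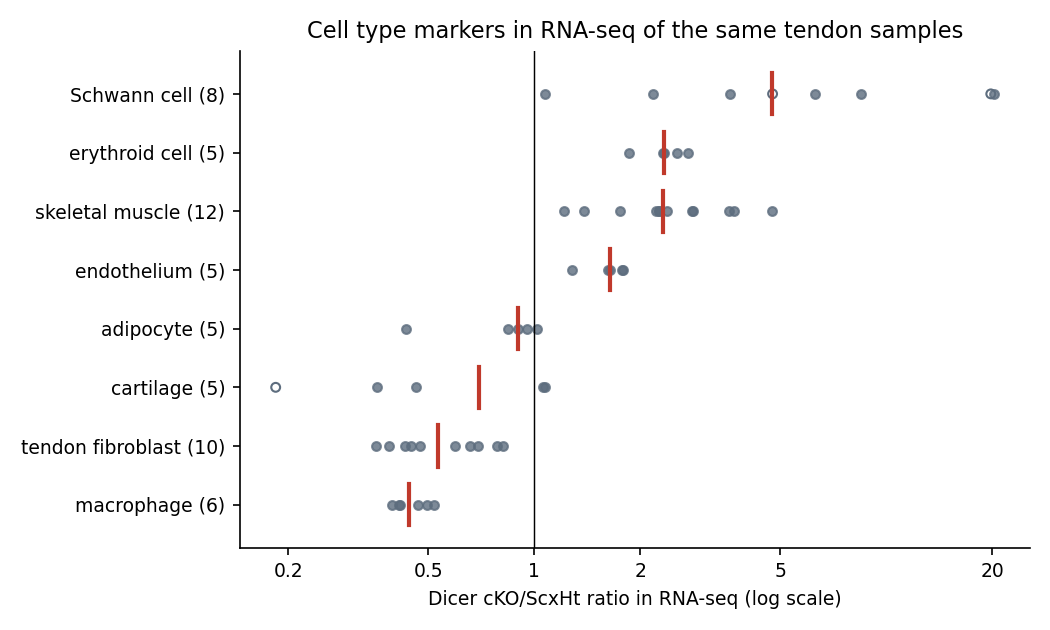
RNA-seq Dicer cKO/ScxHt ratios (log axis) of 8 lists of cell type markers in the same tendon samples. Filled points are genes with a mean count above 50, open points are genes at or below it, red bars are medians of the filled points, and the vertical line is 1. Schwann cell, erythroid, skeletal muscle and endothelial markers lie above 1, and tendon fibroblast and macrophage markers below it.

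miRNAs that do not depend on the usual processing route were looked at separately. Mir451a, whose hairpin is shown above, is cut by Argonaute 2 in place of Dicer, and had the ratio of 1.49 given above. It stood beside Mir144 in the same cluster, which needs Dicer, at 1.36, and their intervals overlapped. Mir320, which bypasses Drosha but not Dicer, had 3136 reads in Dicer cKO, 3651 in ScxHt and 3245 in Control, a ratio of 0.859 (0.819 to 0.901). Mir484, of the same kind, had 0.818 (0.591 to 1.13) on 72 and 88 reads. The mirtrons Mir877, Mir702 and Mir1224 had at most 8 reads per compared library and did not pass the minimum.

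Features with few reads supplied the lowest ratios. Mir467d, from the repeat-derived cluster in an intron of Sfmbt2, had 12 reads in Dicer cKO, 42 in ScxHt and 19.6 in Control, a ratio of 0.286 (0.137 to 0.553), the only interval entirely below 0.60. Mir669c of the same cluster had 327, 540 and 496 reads and 0.606 (0.526 to 0.696), while Mir466d had 34, 18 and 44.4 reads and 1.89 (1.04 to 3.55). Only 4 of 12 listed Sfmbt2 loci passed the minimum, with a median of 0.749. These loci are near-identical copies and their reads are uncertain.

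Mir200a, an epithelial miRNA, had 10, 25 and 12 reads and 0.40 (0.171 to 0.862). Other epithelial miRNAs differed from it, with 1.38 (1.31 to 1.45) for Mir203 and 0.833 (0.496 to 1.39) for Mir200c. Mir3102 had 25, 50 and 19.6 reads and 0.50 (0.296 to 0.824), and Mir6240 had 77, 132 and 91.4 reads and 0.583 (0.435 to 0.778). For Mir467d, Mir200a, Mir3102 and Mir6240 the ScxHt count was the highest of the 3 and Control lay closer to Dicer cKO.

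The count table listed 19 members under names other than Mir, with a median ratio of 0.945. Gm47302 (chr1:45311673-45311813, + strand) overlaps an exon of Col3a1, a collagen of fibroblasts, and had 20 reads in Dicer cKO, 39 in ScxHt and 25.6 in Control, a ratio of 0.513 (0.283 to 0.901). Col3a1 mRNA had a ratio of 0.469 (0.463 to 0.475). The features n-TSaga9 and n-TStga1, named for serine tRNAs, and Gm44456 had almost the same counts, 2859 reads in Dicer cKO, 1678 in ScxHt and 2277 in Control for the first, and ratios of 1.70 to 1.71. They probably share reads and made up 3 of the 36 higher features. Gm47294 had 29, 11 and 16.2 reads and 2.64 (1.28 to 5.85). Mir653, in an intron of Calcr, was the scarcest of the 10 highest features with 23, 9 and 19.6 reads and 2.56 (1.14 to 6.28).

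Loci of 1 genomic cluster are usually cut from 1 primary transcript. Their closeness in ratio was not compared with that of unlinked loci. Over all 322 features the quartiles of the ratio were 0.834 and 1.24. Clusters were taken as loci on 1 strand with gaps of at most 10 kb. In 40 clusters with 136 loci above the minimum, the median fold between the lowest and the highest locus was 1.23, and in 25 clusters at least 1 pair of counting intervals did not overlap. Both values depend on the number of loci in a cluster, and overlap of intervals depends on read depth too. No such count was made for unlinked loci. Mir182 and Mir183 were 1.10-fold apart, Mir144 and Mir451a 1.09-fold, and Mir29a and Mir29b-1 1.04-fold. Wider gaps occurred in other clusters, the muscle clusters among them. The widest was 6.61-fold in the Sfmbt2 cluster with 6 loci above the minimum. In the Dlk1-Dio3 region, clusters with 31 and 11 loci above the minimum had gaps of 3.12-fold and 2.87-fold. Mir206 and Mir133b, which share a transcript on chromosome 1, were 2.06-fold apart, and Mir1a-1 and Mir133a-2 were 1.7-fold apart.

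In the cluster from Mir17 to Mir92-1 on chromosome 14 the ratios ran from 0.625 (0.339 to 1.13) for Mir18 to 2.04 for Mir19a, a 3.27-fold gap, with Mir17 at 1.08, Mir20a at 0.858 and Mir92-1 at 0.968. The host transcript Mir17hg had 81 reads in Dicer cKO and 68 in ScxHt, a ratio of 1.31 (0.939 to 1.84). Mir15b, at 1.37 (1.25 to 1.5), and Mir16-2 of the same cluster, at 0.902, were 1.52-fold apart, but reads at Mir16-2 are shared with Mir16-1. For Mir106b, Mir93 and Mir25, in Mcm7, the ratios were 0.743, 1.02 and 1.08.

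**Figure D5:**
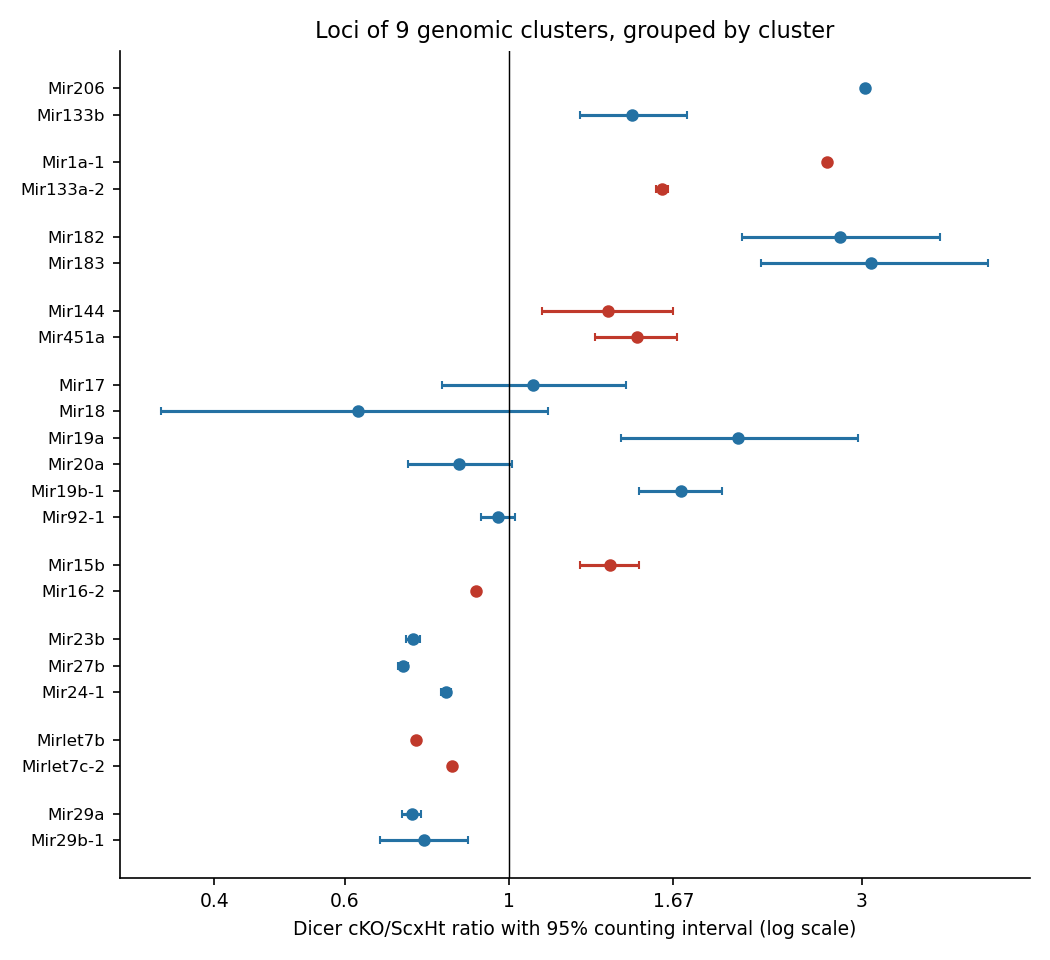
Dicer cKO/ScxHt ratios (points, log axis) with 95% counting intervals (bars) for the loci of 9 genomic clusters, in alternating colours by cluster. The vertical line is 1. Mir206 lies right of Mir133b, Mir1a-1 right of Mir133a-2, and Mir19a and Mir19b-1 right of their 4 neighbours, whereas Mir182 and Mir183 overlap.

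Seed families above the minimum numbered 58 with at least 2 loci, among 387 distinct seeds in 489 mature sequences. These counts cover matched sequences only, from 29 of the 36 higher features among others, so families with unmatched sequences are incomplete or missing. Mature sequences of higher features, with both arms counted, were close to the rest in composition. Their median GC content was 45.5% in 51 sequences against 47.8% in the other 438, both had a median length of 22 bases, and 39.2% against 37.0% began with U.

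The study chose its own list of 10 miRNA loci by their Dicer cKO/Control ratio in these libraries. The list shares the Dicer cKO library and gives no independent evidence of direction here. By real-time PCR the paper also reports miR-135a and miR-1247 as lower in Dicer cKO than in Control, with no ScxHt group. Of the 10 loci, 4 passed the minimum with a median of 0.737. They were Mir219a-2, Mir184 (32, 51 and 70.0 reads, 0.627, 0.390 to 0.995), Mir99a (9254, 10685 and 19823 reads, 0.866, 0.842 to 0.891) and Mir100 (2503, 2739 and 4524 reads, 0.914, 0.865 to 0.965). For Mir99a and Mir100, ScxHt lay nearer to Dicer cKO than to Control. Both Mir135a loci had 16 reads in Dicer cKO and 13 in ScxHt, a ratio of 1.23 (0.555 to 2.78), with Control at 32.4 and 35. Mir1247 had 6, 20 and 33.3 reads and 0.30 (0.0986 to 0.775), Mir34b had 6, 18 and 24.8 reads and 0.333 (0.108 to 0.877), and Mir6988 had 14 reads in both and 35.9 in Control. At these counts a difference between Dicer cKO and ScxHt was not detectable for Mir135a or Mir6988. In the wider miR-34 family, whose genes p53 activates, Mir34a had 953 and 722 reads and 1.32 (1.20 to 1.46), and Mir34c had 54 and 81 and 0.667 (0.463 to 0.952).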

How the data were processed

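Small RNA-seq and RNA-seq counts of Achilles tendon came from 1 library per genotype. By the study's methods, adaptors were trimmed and reads aligned to GRCm38 by Tophat with bowtie2. The authors deposited the raw counts per feature that HTSeq gave, not normalized. Versions, annotation release and strand setting are not given in the sources used here. RPKM files deposited for each library were not used. Reads that fit several loci appear to be listed at each of them, since the copies Mir9-1, Mir9-2 and Mir9-3 have identical counts. Of the 322 members, 41 share all 3 counts with another feature, mostly because 18 loci are listed under 2 names.

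Size factors were estimated with DESeq2 1.42.0 (R 4.3.3) on both libraries. Features needed a mean normalized count above 15 (RNA-seq genes above 50), with log2 ratio limits of 0.74 and -0.74. Ratios carry 95% Clopper-Pearson intervals for counting error. Python 3.11.15 with numpy 2.4.6, pandas 2.3.3, scipy 1.17.1 and matplotlib 3.10.9 was used. No model of the spread and no test was applied, and the interval code was tested on simulated data. Positions came from GENCODE annotation of GRCm38 for 320 members.

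Members, 22 miRNA lists and 8 marker lists were chosen with earlier results of these data known. The value of 1 Schwann cell marker is not reported here. Named features were the 10 highest and 10 lowest past a limit with the interval on 1 side of 1 (6 qualified as lowest), the 10 most abundant, the 5 nearest each limit on both sides, list members, and the extremes of clusters and seed families. Other features named (Mir31, Mir378a, Mir378c, Mir128-1, Mir128-2, Mir7k, Mir7j, Mir466d) were chosen after their values were seen. Alternatives covered scaling (edgeR 4.0.16 TMM among them), the minimum, duplicates, a pseudocount and the limits.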

Additional observations from a re-analysis of the deposited data

How the results depend on the processing

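The 36 higher and 7 lower features depended on the minimum and the limits far more than on the scaling. They became 55 and 33 with a minimum of 5, 19 and 1 with a minimum of 100, 84 and 63 without a minimum, 23 and 2 with limits of 2 and 0.5, and 16 and 1 when the whole interval had to pass the limit. Under 6 other scalings the counts were 36 to 40 and 5 to 7, and all 36 higher features remained. The median ratio of 0.996 became 1.01 with TMM, 1.01 with size factors over 3 libraries, 1.05 with size factors from the features not named Mir, 1.03 with total counts without features above 1% and 0.971 with a minimum of 100. Mir125a turned to 1.03 with size factors from the features not named Mir and to 1.02 with total counts without features above 1%, and Mir127 turned to 1.0 with the former. The medians of the muscle and neural lists, the only ones past a limit, did not change direction, but the scalings shifted ratios too little to turn them. Of 22 list medians, 13 left the counting interval of their middle loci with size factors from the features not named Mir. With total counts without features above 1%, 8 left it. Of 1869 recomputed ratios of named features, 1709 stayed inside their counting interval, 157 left it and 3 turned. No paired analysis was possible because each genotype had 1 library. Depth limited the scarce features, since the intervals of members with 15 to 100 counts spanned a median 2.78-fold, against 1.03-fold above 10000. Differences between mice were not measured.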

Other observations

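The miR-322 and miR-503 cluster on chromosome X (chrX:53047997-53054349, − strand), whose miRNAs are induced when myoblasts leave the cell cycle, had ratios from 1.03 for Mir542 to 1.58 for Mir450-1 at its 6 loci above the minimum, with a median of 1.24. The interval lay above 1 for 2 of the 6, beside 25.8% of all features, and included 1 for the other 4. Mir351 had 2426 reads in Dicer cKO, 1945 in ScxHt and 2133 in Control, a ratio of 1.25 (1.17 to 1.32). Mir503 had 421, 366 and 519 reads and a ratio of 1.15 (0.998 to 1.33).

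The miR-148 and miR-152 seed family (CAGUGCA) lay below 1, from 0.709 (0.661 to 0.761) for Mir148b, with 1353, 1908 and 1406 reads in the same order, to 0.924 (0.910 to 0.939) for Mir148a, with 30722, 33243 and 46935. For Mir148b the Control lay near Dicer cKO, and for Mir148a it lay above both. These families were described after their values were seen. Reads in only 1 of the compared libraries occurred for 186 features, none with more than 9 reads.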
